A study of Mus musculus with 11 samples.

Results

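The study used 2 kinds of non-targeting reagent in the same fibroblasts, a control antisense oligonucleotide (ASO) and a control small interfering RNA (siRNA), and the 2 control ASO arrays were set here directly against the 3 control siRNA arrays, out of 11 arrays in all. The members were the probe sets with a log2 value over 6 in at least 2 arrays of either of these groups, which gave 25536 of the 34760 probe sets on the array. Of these, 17231 carried 1 gene symbol, and taking the probe set with the highest mean for each symbol left 15896 genes. The rule used levels and not the difference between the reagents, and its edge fell at 6.0000 for the lowest deciding value inside and 5.9999 for the highest outside.

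All cells were mouse embryonic fibroblasts (MEFs) from C57BL/6 x 129/SvJ animals carrying the p53 LSL/LSL alleles, in which a stop cassette keeps the p53 gene silent until Cre removes it. Every group had received AdenoCre virus at an moi of 5 for 24 h to restore p53, was then transfected, and 24 h later was given 150 nM doxorubicin, a DNA-damaging drug, for 12 h, so that no untransfected and no undamaged cells were among the arrays. The other groups were 3 arrays of p53 siRNA and 3 arrays of Pint ASO, a mixture of several antisense oligonucleotides against the long noncoding RNA Lncpint, whereas the methods describe a single non-targeting ASO as its control. No control sample of this design was left without an oligonucleotide, so a gene that differed between the controls could have been raised by one reagent or lowered by the other, and these cannot be told apart. Reagent class, the sequence of the oligonucleotide and any difference in how the ASO and siRNA arms were handled cannot be told apart either. The labels do not say whether arrays of a group came from separate cultures, so p-values measure the spread between these arrays, which may be technical.

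The 2 kinds of reagent work differently. A gapmer ASO is a single strand of DNA with a phosphorothioate backbone and modified ends, which pairs with RNA in the nucleus and the cytoplasm and recruits RNase H to cut it. An siRNA is a short RNA duplex, one strand of which is loaded into an Argonaute protein and guides it to messenger RNA, mainly in the cytoplasm. Phosphorothioate oligonucleotides are also known to bind many proteins, among them nuclear proteins of paraspeckles and the nucleolus, and double-stranded RNA can be sensed by innate immune receptors.

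The arrays of the 2 control groups correlated almost as closely as arrays within a group. Pearson correlations over the 26038 tested probe sets were 0.989 to 0.991 between control ASO and control siRNA arrays, against 0.991 between the 2 control ASO arrays and 0.991 to 0.995 within groups in general. The median log2 difference, control ASO minus control siRNA, was -0.0024 over the genes. In the limma fit over all 11 arrays, 1043 member probe sets passed a Benjamini-Hochberg adjusted p of 0.05, or 4.08% of the members. They divided into 593 that were higher in control ASO (2.32%) and 450 that were lower (1.76%). After centring every array on its median, the split was 544 higher and 252 lower. Before adjustment, 4603 of the 25536 member probe sets had a limma p under 0.05.

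At the level of genes, 430 were higher in control ASO (2.71%) and 344 were lower (2.16%), with a median difference of 0.35 among the former and -0.34 among the latter. The control ASO and control siRNA arrays did not overlap in any of these 774 genes, beside 37.1% of all genes without overlap. A difference of at least 1, which is a doubling, was reached by 48 called probe sets that were higher and by 6 that were lower. The number called rested on few arrays. It was 301 without control ASO array 1 and 636 without control ASO array 2, and 428, 551 and 423 without control siRNA arrays 1, 2 and 3. Of the 774 called genes, 145 (85 higher and 60 lower) passed in each of the 11 fits that left out 1 array.

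**Figure D1:**
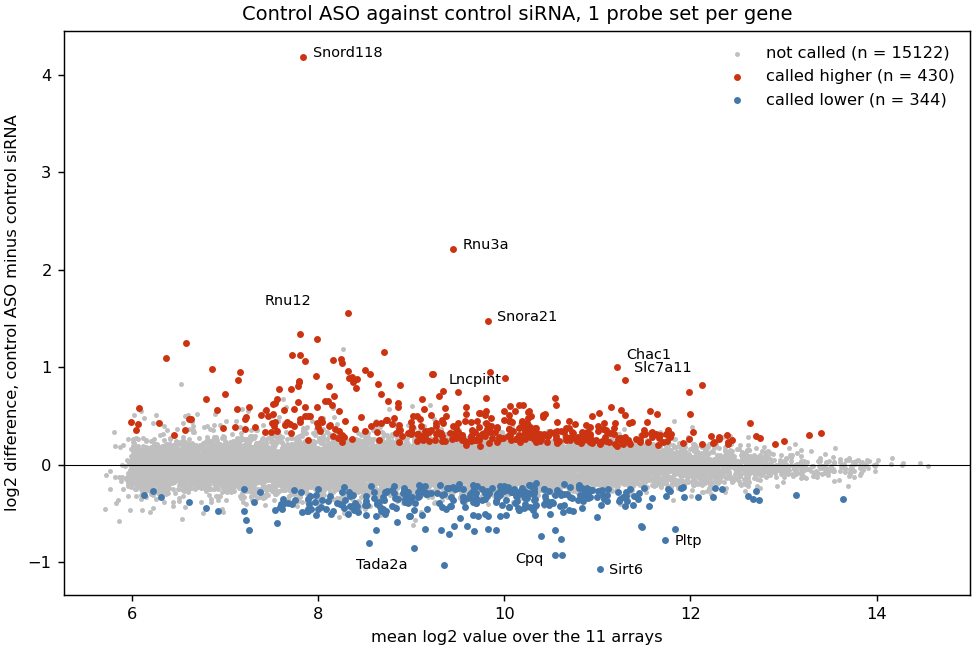
Each point is 1 of 15896 genes, placed by its mean log2 value over the 11 arrays and by its log2 difference, control ASO minus control siRNA. Red points are the 430 genes called higher and blue points the 344 called lower, and Snord118 stands at 4.19, above every other gene.

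The genes furthest apart between the controls encoded short structural RNAs. Snord118, which encodes the U8 small nucleolar RNA needed to process the large ribosomal subunit RNAs, is a 137-base gene at chr11:69073426-69073562 (GRCm38.p6, RefSeq annotation). It read 6.26, 6.27 and 5.91 on the log2 scale in the control siRNA arrays and 10.37 and 10.29 in the control ASO arrays. The log2 difference was 4.19 ± 0.15 SE (limma adjusted p = 7.25e-06), and since the control siRNA arrays lay around the floor of 6 used here for low values, no fold is given. The Pint ASO arrays read 9.43, 9.17 and 9.59 and the p53 siRNA arrays 6.43, 6.41 and 6.13, so that all ASO arrays lay above all siRNA arrays.

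Rnu3a, one of several near-identical genes of the U3 RNA that guides the early cuts of the ribosomal RNA precursor, lies at chr10:40258468-40258679. It read 8.60, 8.67 and 8.71 in control siRNA and 11.13 and 10.63 in control ASO, a log2 difference of 2.22 ± 0.15 SE (limma adjusted p = 0.000137). Probes for one U3 copy may also capture the others, so the value may be that of the family.

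Rnu12 encodes U12, a component of the minor spliceosome, at chr15:83149645-83149794. Its control siRNA arrays read 7.54, 7.60 and 7.71 and its control ASO arrays 9.14 and 9.22, a difference of 1.56 ± 0.06 SE (limma adjusted p = 1.15e-05). The groups were far apart relative to their spread, and the Pint ASO arrays, at 9.22 to 9.31, were at the same height as control ASO. Snora21, a snoRNA that guides pseudouridylation and lies at chr11:97781639-97781766, read 9.44, 9.36 and 9.26 against 10.80 and 10.85, a difference of 1.47 ± 0.13 SE (limma adjusted p = 0.000471). A further probe set assigned to Snora21 gave 0.40 with an adjusted p of 0.309, so the 2 probe sets of that gene disagreed.

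Vaultrc5, a vault RNA gene, read 7.15, 6.85 and 7.09 in control siRNA and 8.15 and 8.17 in control ASO (difference 1.13 ± 0.11 SE, limma adjusted p = 0.000914). Rny1 encodes a Y RNA, a binding partner of the Ro60 protein, and read 7.25, 6.88 and 7.49 against 8.46 and 8.22, a difference of 1.13 ± 0.20 SE (limma adjusted p = 0.0167). The Rny1 call was lost without control siRNA array 1 (1.15, adjusted p = 0.0529) and without control ASO array 1 (1.01, adjusted p = 0.12). Snora23 also passed, at 0.68 ± 0.11 SE (limma adjusted p = 0.0125), and missed the threshold without control siRNA array 3 (adjusted p = 0.0503), control ASO array 1 (adjusted p = 0.0867) or control ASO array 2 (adjusted p = 0.0531).

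Rn7sk, Rny3, Rmrp and Rpph1, genes of other short RNAs, were not called. Rn7sk, the scaffold of the complex that restrains transcription elongation, read 14.61, 14.56 and 14.58 in control siRNA and 14.56 and 14.58 in control ASO. Rny3 differed by -0.05 ± 0.09 SE (adjusted p = 0.851), Rmrp by -0.03 ± 0.13 SE (adjusted p = 0.952) and Rpph1, the RNase P RNA, by -0.02 ± 0.06 SE (adjusted p = 0.913), all in the limma fit. Terc, the telomerase RNA, lay at 10.85 and 10.92 in control ASO, above every other array, and its difference of 0.27 ± 0.07 SE did not pass (limma adjusted p = 0.0593).

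Small nucleolar and Cajal body RNA genes were taken by symbol (Snord, Snora or Scarna), which leaves out Rnu3a. Of 50 measured, 3 were higher (6.0%, beside 2.71% of all genes), Snord118, Snora21 and Snora23. A further 1 was lower (2.0%, beside 2.16%) and 46 did not pass, with a list median of -0.035 beside -0.0024 over all genes. The lower one was Snord16a, which read 10.90, 10.81 and 10.84 in control siRNA and 10.47 and 10.27 in control ASO (difference -0.48 ± 0.07 SE, limma adjusted p = 0.00665). Of 48 genes annotated as snoRNA, whatever their symbol, 3 were higher and 2 lower. The gene next to Snord118, Tmem107, which ends 132 bases before it, differed by 0.04 ± 0.08 SE (limma adjusted p = 0.87). Poldip3, 266 bases before Rnu12, differed by 0.05 ± 0.05 SE (limma adjusted p = 0.647).

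**Figure D2:**
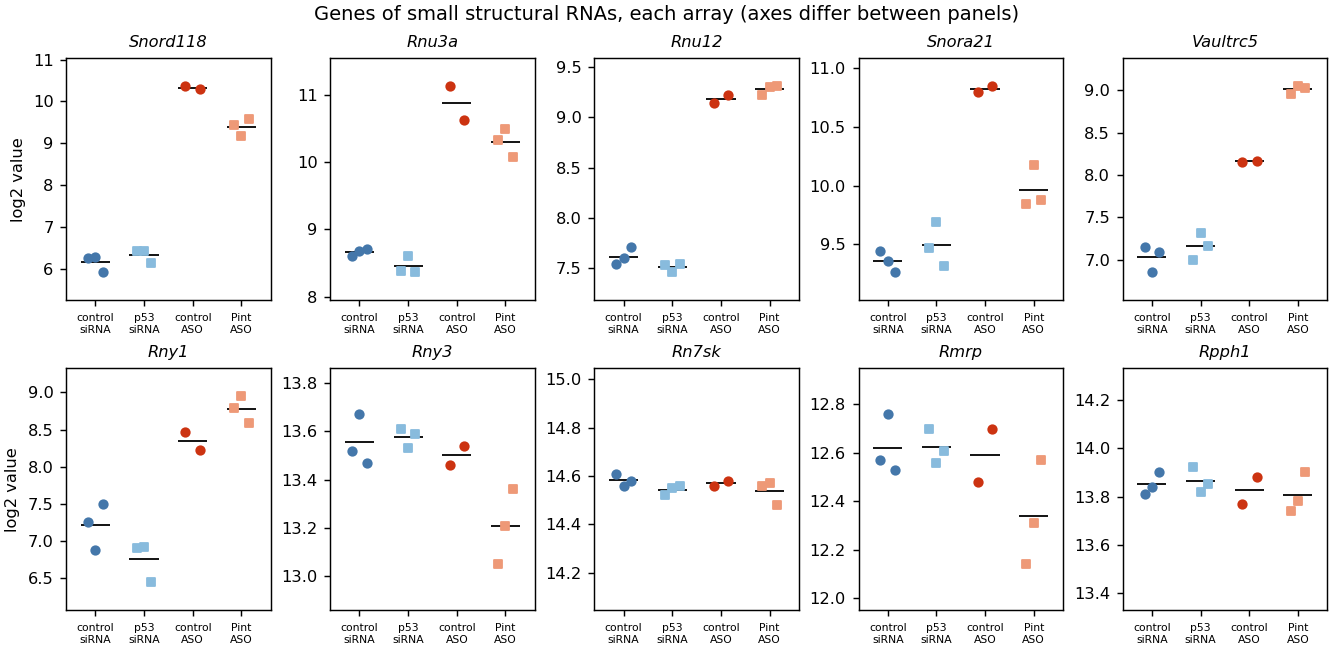
Log2 values of 10 genes of short structural RNAs in each array, by group, with the bar at the group mean; each panel has its own axis, none spanning less than 1 log2 unit. Control ASO and Pint ASO arrays lie above all siRNA arrays for the 6 genes from Snord118 to Rny1, while Rn7sk, Rmrp and Rpph1 overlap between the controls.

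MicroRNA genes gave 3 that were higher and none that was lower out of 148 measured (2.03%, beside 2.71% of all genes), with a median of -0.038, so the share called was no higher than among genes at large. The 3 are shown by the mature RNAs they encode (RefSeq, GRCm38.p6), with the seed, bases 2 to 8, in capitals, to show that no seed was shared among them. The array cannot separate a mature RNA from its primary transcript, and which of them was read is not known.
mmu-miR-31-5p (chr4:88910614-88910635, minus strand): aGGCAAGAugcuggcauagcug
mmu-miR-31-3p (chr4:88910577-88910599, minus strand): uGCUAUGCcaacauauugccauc
mmu-miR-3068-5p (chr12:87437724-87437747, minus strand): uUGGAGUUcaugcaaguucuaacc
mmu-miR-3068-3p (chr12:87437685-87437706, minus strand): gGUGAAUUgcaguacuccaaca
mmu-miR-6516-5p (chr11:117077370-117077391, plus strand): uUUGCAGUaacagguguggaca
mmu-miR-6516-3p (chr11:117077412-117077433, plus strand): uCAUGUAUgauacugcaaacag

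Mir3068 read 6.09, 6.07 and 5.96 in control siRNA and 7.49 and 6.79 in control ASO (difference 1.09 ± 0.17 SE, limma adjusted p = 0.00822), with the control ASO arrays unequal but both above all other arrays. Its control siRNA arrays lay around the floor of 6, so the size of its difference is uncertain. Mir31 read 7.01, 7.31 and 7.08 against 8.08 and 7.73 (0.78 ± 0.12 SE, limma adjusted p = 0.011), and the Pint ASO arrays were higher still at 8.36, 8.55 and 8.63. Mir6516 read 8.11, 8.18 and 8.06 against 8.55 and 8.38 (0.35 ± 0.06 SE, limma adjusted p = 0.0147). Without control ASO array 1 neither Mir31 (0.60, adjusted p = 0.0834) nor Mir6516 (0.27, adjusted p = 0.0999) passed. Mir6516 was also lost without control siRNA array 1 (adjusted p = 0.0544) or 3 (adjusted p = 0.0582).

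Long noncoding transcripts were uneven in direction. Of 467 genes annotated as lncRNA, 46 were higher in control ASO (9.85%) and 3 were lower (0.642%). Among 15020 protein-coding genes, 360 were higher (2.40%) and 339 lower (2.26%). Without control ASO array 1 the lncRNA counts were 17 and 2 and the coding counts 64 and 93. Without control siRNA array 3 they were 27 and 3 for lncRNA and 153 and 97 for coding genes, and without control siRNA arrays 1 and 2 the coding counts were 149 and 107, and 160 and 193. Without control ASO array 2 the coding counts were 251 and 151. After median centring 48 lncRNAs were higher and 3 lower, and 309 coding genes were higher and 184 lower.

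Among the 12 highest genes, Gm15441 read 7.28, 7.18 and 7.25 in control siRNA and 8.70 and 8.45 in control ASO (difference 1.34 ± 0.09 SE, limma adjusted p = 0.000107). B330016D10Rik read 6.28, 5.94 and 6.07 against 7.55 and 7.15 (1.25 ± 0.16 SE, limma adjusted p = 0.00454), a difference of uncertain size because its control siRNA arrays lay around the floor of 6. 4632404H12Rik read 7.89, 7.72 and 7.64 against 8.92 and 8.75 (1.09 ± 0.10 SE, limma adjusted p = 0.000954). All 3 are annotated as lncRNAs of little known function, and in each of them both control ASO arrays lay above all 6 siRNA arrays. Gm10209, a predicted gene, read 7.69, 7.56 and 7.46 against 8.97 and 8.75 (1.29 ± 0.08 SE, limma adjusted p = 0.000107).

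The remaining gene among the 12 highest was Cxcl11, an interferon-induced chemokine gene that the reference strain carries as a transcribed pseudogene. It read 7.75, 7.61 and 7.68 in control siRNA and 8.99 and 8.68 in control ASO (1.15 ± 0.18 SE, limma adjusted p = 0.00921). Without control ASO array 1 it no longer passed (adjusted p = 0.0836). The p53 siRNA arrays, at 8.40, 8.76 and 8.68, were also above control siRNA.

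Ggnbp2os, an antisense transcript chosen after its values were seen, read 8.09, 7.94 and 8.0 in control siRNA and 9.09 and 8.86 in control ASO (0.97 ± 0.10 SE, limma adjusted p = 0.00112). Its sense partner Ggnbp2, which it overlaps at chr11:84870005-84870837, differed by 0.04 ± 0.07 SE (limma adjusted p = 0.848).

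Lncpint, the lncRNA that the Pint ASO targets and the control ASO does not, itself differed between the controls. It read 9.43, 9.88 and 9.53 in control siRNA and 10.41 and 10.23 in control ASO (0.71 ± 0.12 SE, limma adjusted p = 0.0137). The Pint ASO arrays read 8.60, 8.48 and 8.55 and the p53 siRNA arrays 9.13, 9.02 and 9.06, so the control ASO arrays were the highest of all 11. The call was lost without control siRNA array 3 (0.67, adjusted p = 0.0545) and without control ASO array 1 (0.62, adjusted p = 0.105). Copg2, a coat protein gene in the same region of chromosome 6, differed by -0.19 ± 0.06 SE and did not pass (limma adjusted p = 0.109).

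Genes of the ATF4 and amino acid response made up the most called list. ATF4 is a transcription factor whose translation rises when the kinases of the integrated stress response phosphorylate eIF2, and its targets supply amino acids and charge transfer RNAs. Of 58 measured genes 28 were higher in control ASO (48.3%, beside 2.71% of all genes), none was lower, and the list median was 0.25 beside -0.0024 over all genes. Of the 28, 11 passed in every fit that left out 1 array. The count was 11 without control ASO array 1, and 16, 17 and 17 without control siRNA arrays 1, 2 and 3. It was 4 when only the 5 control arrays were fitted. In that fit no list had more than 4 calls, with 2 snoRNA genes, 1 interferon-stimulated gene and 1 cytokine gene called higher and no gene called in any other list. Lists can share members, so the interferon-stimulated and the cytokine call may be the same gene.

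The regulators had 10 of 16 genes higher, with a median of 0.31. Chac1, an enzyme that degrades glutathione and a sensitive ATF4 target, read 10.47, 10.48 and 10.44 in control siRNA and 11.47 and 11.46 in control ASO. Its difference was 1.01 ± 0.05 SE (limma adjusted p = 3.01e-05), many times the spread within the groups. Trib3, a pseudokinase that feeds back on ATF4, read 8.78, 8.78 and 8.74 against 9.56 and 9.50 (0.76 ± 0.07 SE, limma adjusted p = 0.000927). Atf3, a stress transcription factor, read 10.91, 10.83 and 10.91 against 11.50 and 11.39 (0.56 ± 0.06 SE, limma adjusted p = 0.00186). Cebpg, a dimer partner of ATF4, read 9.25, 9.30 and 9.21 against 9.82 and 9.74 (0.53 ± 0.06 SE, limma adjusted p = 0.00342). The Pint ASO arrays were higher than control ASO in all 4 of these genes, from 12.25 to 12.36 for Chac1.

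Atf4 itself differed less, with 9.57, 9.53 and 9.56 against 9.89 and 9.80 (0.29 ± 0.06 SE, limma adjusted p = 0.0217). Ddit3, which encodes the pro-apoptotic factor CHOP, differed by 0.30 ± 0.05 SE (limma adjusted p = 0.0151). The call of Atf4 was lost without control ASO array 1 (0.24, adjusted p = 0.142) or any of the control siRNA arrays (adjusted p from 0.0636 to 0.0704), and that of Ddit3 without any of the 5 control arrays (adjusted p from 0.05 to 0.0808). Nupr1 (0.22, adjusted p = 0.106) was measured and did not pass.

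Amino acid transporters had 8 of 12 genes higher, with a median of 0.32. Slc7a3, a cationic amino acid transporter, read 7.98, 7.69 and 7.78 in control siRNA and 8.82 and 8.68 in control ASO (0.93 ± 0.10 SE, limma adjusted p = 0.00188). Slc7a11, the cystine transporter xCT, read 10.91, 10.80 and 10.85 against 11.83 and 11.62 (0.87 ± 0.07 SE, limma adjusted p = 0.00028). Slc7a5, the large neutral amino acid transporter LAT1, read 11.44, 11.52 and 11.51 against 12.37 and 12.24 (0.82 ± 0.06 SE, limma adjusted p = 0.000293). Slc3a2, the heavy chain that pairs with the last 2, differed by less, 0.33 ± 0.04 SE (limma adjusted p = 0.00468). Slc6a9, a glycine transporter, differed by 0.55 ± 0.05 SE (limma adjusted p = 0.00114) and the arginine and lysine transporter Slc7a1 by 0.45 ± 0.06 SE (limma adjusted p = 0.00361). These 6 calls held in every fit that left out 1 array. Slc1a5 and Slc38a1, also called higher, were lost in 5 and 10 of those fits (limma adjusted p up to 0.124 and 0.243).

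Enzymes of amino acid and one-carbon synthesis had 5 of 14 higher, with all 14 differences above 0. Aldh1l2, a mitochondrial folate enzyme, read 9.53, 9.47 and 9.54 against 10.03 and 9.91 (0.45 ± 0.06 SE, limma adjusted p = 0.00485). Mthfd2 (0.44), Phgdh (0.39), Gpt2 (0.34) and Asns (0.25), the asparagine synthetase, also passed. None of these did without control ASO array 1, where their adjusted p-values ran from 0.0624 to 0.181. Phgdh and Asns were also lost on leaving out any control siRNA array, and Asns in 7 of the 11 fits that left out 1 array. Cytosolic aminoacyl-tRNA synthetases had 5 of 16 higher (Lars, Iars, Vars, Wars and Yars), between 0.25 and 0.33. None of these 5 passed without control ASO array 1 or control siRNA array 1, and the highest adjusted p in a fit that left out 1 array was 0.246, for Yars.

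**Figure D3:**
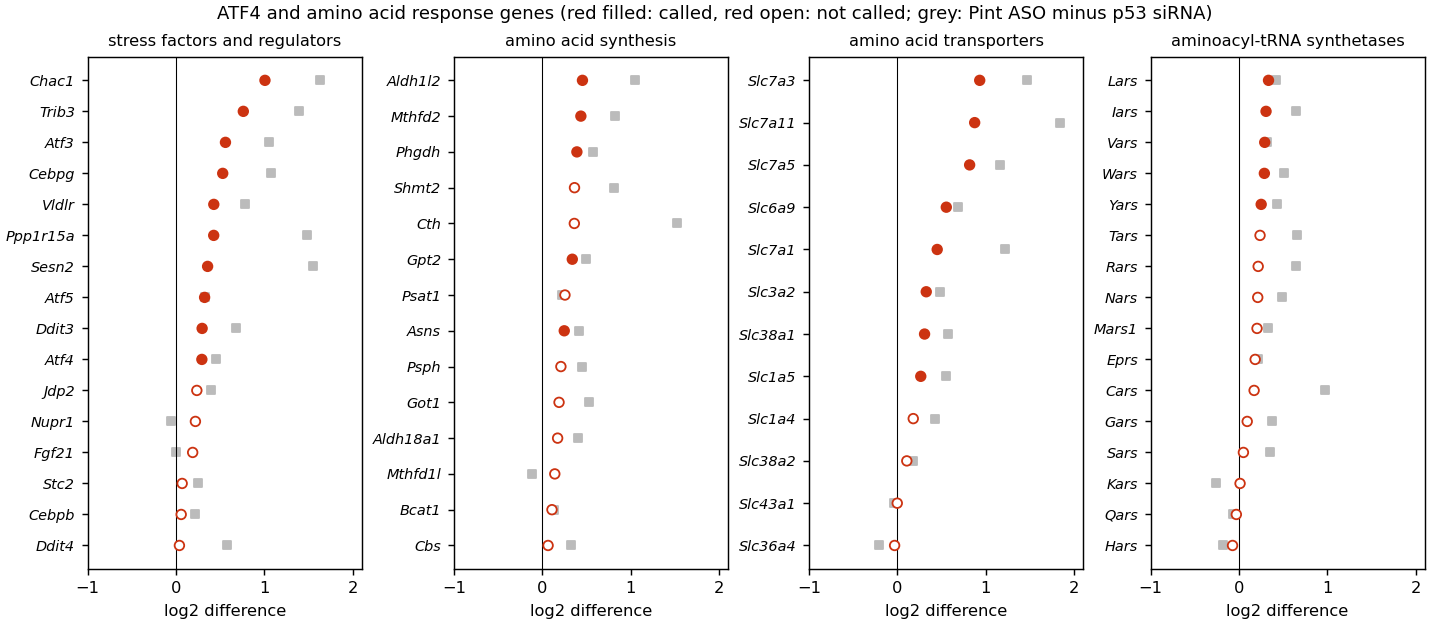
Log2 differences of the 58 measured ATF4 and amino acid response genes by role, with control ASO minus control siRNA in red (filled where called, 28 genes) and Pint ASO minus p53 siRNA in grey. Most grey squares lie to the right of the red circles, with Chac1 at 1.01 in red and 1.63 in grey.

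The promoters of these genes were searched for the C/EBP-ATF response element (CARE), taken as TGATGNAAN on either strand, in the 250 bases before and 50 after each RefSeq start site. It was present for 15 of the 45 measured ATF4 list genes with a promoter in the table (33.3%), for 8 of the 20 that were called (40.0%) and for 351 of 12506 measured genes (2.81%). Over all 32851 promoters 3.95% held it. Windows were counted for each motif they held, and a match is a run of letters, not a site shown to be used. The list was made up of genes chosen for the ATF4 response. Its share above that of all genes therefore describes the list and is no result of these arrays. The 3 called genes with the largest differences and a match before the start site, and Asns, are printed 5′ to 3′ for the 250 bases before the start, with the match in capitals (RefSeq promoters, GRCm38.p6).
Chac1 (chr2:119350992-119351241, plus strand): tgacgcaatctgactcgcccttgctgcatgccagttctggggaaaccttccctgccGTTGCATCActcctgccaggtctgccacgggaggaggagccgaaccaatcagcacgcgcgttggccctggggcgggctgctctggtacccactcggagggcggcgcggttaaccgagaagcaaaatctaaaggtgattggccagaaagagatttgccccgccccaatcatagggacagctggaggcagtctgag
Slc7a11 (chr3:50443614-50443863, minus strand): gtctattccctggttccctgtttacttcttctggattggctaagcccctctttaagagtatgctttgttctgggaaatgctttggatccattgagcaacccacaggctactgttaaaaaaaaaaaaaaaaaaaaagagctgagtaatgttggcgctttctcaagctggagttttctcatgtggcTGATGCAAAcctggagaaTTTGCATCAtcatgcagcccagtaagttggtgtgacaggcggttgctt
Atf3 (chr1:191183334-191183583, minus strand): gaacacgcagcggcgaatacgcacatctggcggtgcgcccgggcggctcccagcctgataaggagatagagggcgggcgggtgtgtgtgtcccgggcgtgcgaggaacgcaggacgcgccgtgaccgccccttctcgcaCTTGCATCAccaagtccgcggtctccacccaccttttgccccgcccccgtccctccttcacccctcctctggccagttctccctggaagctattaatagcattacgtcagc
Asns (chr6:7693210-7693459, minus strand): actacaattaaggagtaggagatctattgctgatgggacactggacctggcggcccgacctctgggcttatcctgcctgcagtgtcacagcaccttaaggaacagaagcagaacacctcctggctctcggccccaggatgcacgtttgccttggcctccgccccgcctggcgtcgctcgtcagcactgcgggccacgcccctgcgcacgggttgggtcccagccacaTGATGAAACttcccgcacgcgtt

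Slc7a11 held 2 matches in opposite orientation, which is visible in its line, and the others held 1 each. Trib3, Iars and Yars had their match after the start site and are not printed. The cyclic AMP response element TGACGTCA was found for 1 of the same 45 genes (2.22%, beside 3.18% of measured genes), and the CArG box for none. Immediate-early genes had the CArG box in 3 of 39 (7.69%, beside 1.62%), TGACGTCA in 6 (15.4%) and the AP-1 site TGANTCA in 1 (2.56%, beside 6.89%). Interferon response genes had GAAANNGAA, the core of the interferon-stimulated response element, in 14 of 28, beside 8.26% of measured genes. These lists were also chosen for a response, so their shares describe the lists and not these arrays.

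Other stress lists were called less. Of 22 measured genes of the unfolded protein response only Herpud1, which takes part in degradation from the endoplasmic reticulum, was higher (0.44 ± 0.05 SE, limma adjusted p = 0.00337), and the chaperone Hspa5 differed by 0.15 (adjusted p = 0.165). None of 15 heat shock genes passed. Of 24 targets of NRF2, the regulator of antioxidant genes, 5 were higher (20.8%, beside 2.71% of all genes) and none lower. Hmox1, heme oxygenase, read 12.41, 12.33 and 12.39 in control siRNA and 12.78 and 12.83 in control ASO (0.43 ± 0.06 SE, limma adjusted p = 0.00454). Gclm, the modifier subunit of the enzyme that starts glutathione synthesis, differed by 0.52 ± 0.08 SE (limma adjusted p = 0.00977), a call lost without control ASO array 1 (0.43, adjusted p = 0.0831). The list count was 2 without that array and 3 on leaving out any array of either siRNA group or the first of Pint ASO.

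Immediate-early genes, which respond within minutes to growth factors and stress, had 12 of 53 higher (22.6%, beside 2.71% of all genes) and none lower. The count was 7 without control ASO array 1, 8 without control siRNA array 1 and 0 when only the 5 control arrays were fitted. Plk3, a stress-responsive kinase, read 9.79, 9.73 and 9.72 in control siRNA and 10.45 and 10.27 in control ASO (0.61 ± 0.06 SE, limma adjusted p = 0.00163). Myc read 11.49, 11.36 and 11.44 against 11.99 and 11.92 (0.52 ± 0.07 SE, limma adjusted p = 0.0039). Egr1 read 10.99, 10.94 and 10.93 against 11.42 and 11.38 (0.45 ± 0.04 SE, limma adjusted p = 0.00101). Among AP-1 factors 3 of 8 passed, Junb, Fosl1 and Atf3. Atf3 and Plk3 are counted in other lists too. Of 22 ribosome biogenesis factors 3 were higher (13.6%, beside 2.71% of all genes) and 21 differences were above 0, with Wdr43 at 0.36 (limma adjusted p = 0.00779). None of those 3 was called without control ASO array 1, and the count was 1 on leaving out any array of control siRNA, array 2 or 3 of p53 siRNA, or control ASO array 2.

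Of 39 interferon-stimulated genes 3 were higher (7.69%, beside 2.71% of all genes), 1 was lower and 35 did not pass, with 35 of the 39 differences above 0 and a median of 0.14. Mx1, an antiviral GTPase, read 7.44, 7.08 and 7.11 in control siRNA and 8.28 and 7.96 in control ASO (0.91 ± 0.17 SE, limma adjusted p = 0.0196). Rsad2, which encodes viperin, read 9.41, 9.10 and 9.23 against 10.28 and 9.99 (0.89 ± 0.15 SE, limma adjusted p = 0.0147). Cxcl10 read 11.14, 11.12 and 11.07 against 11.94 and 11.78 (0.75 ± 0.11 SE, limma adjusted p = 0.00639). The p53 siRNA arrays were above all control siRNA arrays in each of the 3, at 8.19 to 8.41 for Mx1 and 12.17 to 12.48 for Cxcl10, so the control siRNA group was the lowest of the 4. Without control ASO array 1 none of the 3 passed (adjusted p = 0.141, 0.114 and 0.0644), and without control siRNA array 3 only Cxcl10 did. Ccl5, a chemokine, was the lower one, at 12.84, 12.84 and 12.85 against 12.39 and 12.60 (-0.35 ± 0.06 SE, limma adjusted p = 0.0171), a call lost without control ASO array 1 (-0.25, adjusted p = 0.0943) or any control siRNA array (adjusted p from 0.0511 to 0.0638).

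Among 22 sensors and adaptors of nucleic acids only Traf6, a ubiquitin ligase downstream of Toll-like receptors, passed (0.39 ± 0.07 SE, limma adjusted p = 0.0152), and it was lost without control ASO array 1 (0.28, adjusted p = 0.0916) and control siRNA arrays 1 (adjusted p = 0.0565) and 3 (adjusted p = 0.0603). Eif2ak2, which encodes the double-stranded RNA kinase PKR, read 10.47, 10.28 and 10.37 in control siRNA and 10.52 and 10.31 in control ASO, so the groups overlapped. Of 18 genes of RNA interference Ago3 was higher (0.25, limma adjusted p = 0.0422) and Tnrc6c, a partner of Argonaute in silencing, was lower. Tnrc6c read 10.04, 10.04 and 10.01 against 9.62 and 9.58 (-0.43 ± 0.05 SE, limma adjusted p = 0.00205) and held in every fit that left out 1 array, whereas Ago3 was lost in 9 of the 11, with adjusted p-values from 0.0521 to 0.227. Ago2, the slicing Argonaute, differed by 0.11 ± 0.05 SE (limma adjusted p = 0.231).

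None of 21 genes for RNase H and for nuclear proteins that bind phosphorothioate oligonucleotides passed. Rnaseh1 read 7.96, 7.62 and 7.77 in control siRNA and 7.74 and 7.73 in control ASO, a difference of -0.05 ± 0.11 SE (limma adjusted p = 0.891). Of 25 genes of endocytic uptake only Eea1, an early endosome tether, passed, at 9.75, 9.73 and 9.67 against 10.27 and 10.08 (0.46 ± 0.06 SE, limma adjusted p = 0.00617).

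The lower genes were of another kind, with protein-coding genes throughout the 12 lowest. Sirt6, a chromatin deacetylase that acts in DNA repair and glucose metabolism, read 11.18, 11.23 and 11.18 in control siRNA and 10.08 and 10.18 in control ASO. It stood at 47.7% of the control siRNA level (-1.07 ± 0.06 SE, limma adjusted p = 3.65e-05). The p53 siRNA arrays read 11.15 to 11.18 and the Pint ASO arrays 11.27 to 11.42, so the control ASO arrays alone were low. Tada2a, a subunit of histone acetyltransferase complexes, had the same shape. It read 9.58, 9.56 and 9.56 against 8.60 and 8.49 (-1.02 ± 0.10 SE, limma adjusted p = 0.000954), with 9.35 to 9.66 in Pint ASO.

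Ptchd4, a patched-domain protein, read 10.51, 10.54 and 10.65 against 9.71 and 9.58 (-0.92 ± 0.06 SE, limma adjusted p = 0.000107). A further Ptchd4 probe set gave -0.40 (limma adjusted p = 0.00616). Atxn1, a transcriptional co-repressor, read 10.88, 10.85 and 10.78 against 10.05 and 10.11 (-0.75 ± 0.05 SE, limma adjusted p = 0.000109), and its other probe set gave -0.79. In these 2 genes as well, both control ASO arrays lay below the 9 other arrays.

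Other genes among the 12 were low in both ASO groups. Cpq, a secreted carboxypeptidase, read 11.10, 11.07 and 11.13 in control siRNA and 10.24 and 10.11 in control ASO (-0.92 ± 0.06 SE, limma adjusted p = 7.98e-05), with 9.96 to 10.05 in Pint ASO. Tenm3, a teneurin adhesion receptor, read 9.31, 9.32 and 9.40 against 8.53 and 8.44 (-0.86 ± 0.07 SE, limma adjusted p = 0.000332). Cdh13, a cadherin anchored by a lipid tail, read 10.78, 10.71 and 10.76 against 9.94 and 10.09 (-0.73 ± 0.06 SE, limma adjusted p = 0.000471). In each of these 3 genes all 6 siRNA arrays lay above all 5 ASO arrays.

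Dpt, which encodes the matrix protein dermatopontin, read 9.39, 9.24 and 9.37 against 8.55 and 8.52 (-0.80 ± 0.10 SE, limma adjusted p = 0.00419), and Pint ASO was lower at 7.11 to 7.47. Trf, transferrin, differed by -0.71 ± 0.09 SE (limma adjusted p = 0.00356) and the adhesion receptor Adgrg2 by -0.68 ± 0.05 SE (limma adjusted p = 0.000293). In Dpt, Trf and Adgrg2 all ASO arrays lay below all siRNA arrays, although in Adgrg2 the 2 ASO groups overlapped. Pltp, the phospholipid transfer protein, read 12.47, 12.52 and 12.54 against 11.68 and 11.80 (-0.77 ± 0.06 SE, limma adjusted p = 0.000276), but p53 siRNA was lower still at 11.29 to 11.31. Pid1, an adaptor linked to insulin signalling, read 9.91, 9.83 and 9.84 against 9.21 and 9.16 (-0.67 ± 0.06 SE, limma adjusted p = 0.000422), again with p53 siRNA lowest at 8.80 to 8.87. All 12 of these genes passed in every fit that left out 1 array.

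**Figure D4:**
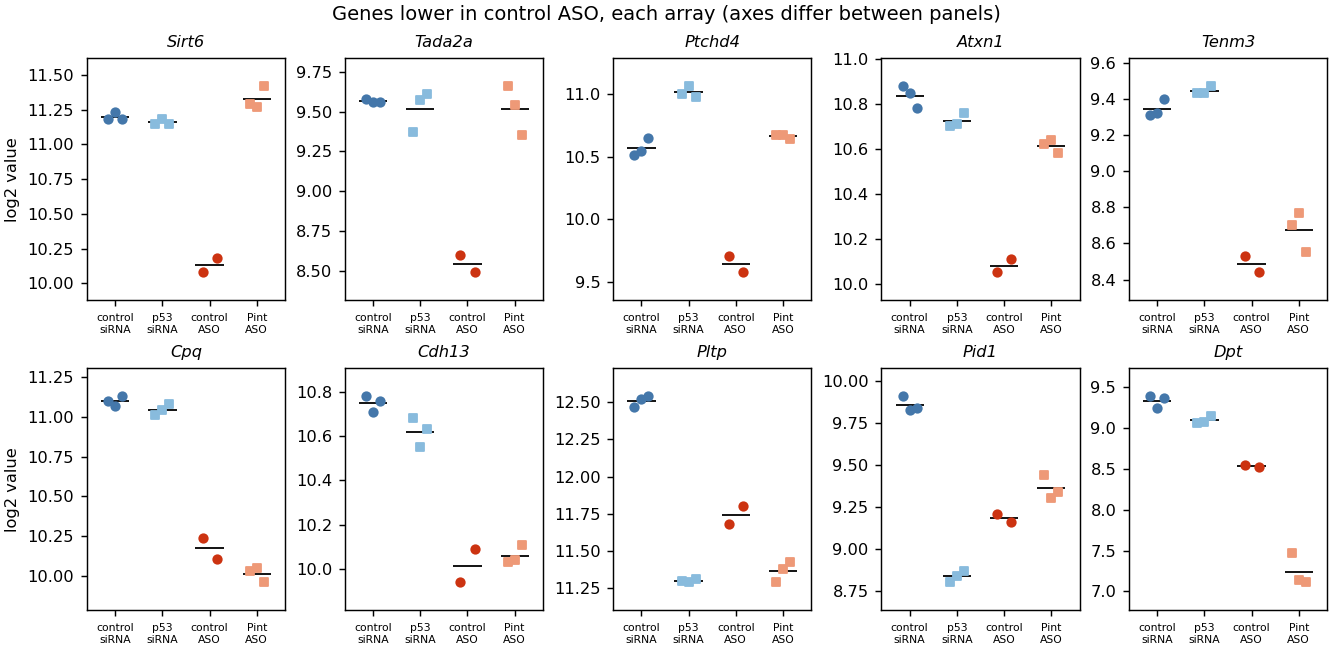
Log2 values in each array for 10 of the 12 genes that were lowest in control ASO relative to control siRNA, by group, with the bar at the group mean; each panel has its own axis. Control ASO lies below the 3 other groups for Sirt6, Tada2a, Ptchd4 and Atxn1, whereas both ASO groups are low for Tenm3, Cpq, Cdh13 and Dpt.

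Over all genes, both control ASO arrays lay below the 9 other arrays in 244 (1.53%) and above them in 321 (2.02%). Among the 344 genes called lower 58 were below all others (16.9%), and among the 430 called higher 58 were above all others (13.5%); these shares use the arrays that made the calls and are a description. Besides Sirt6, Tada2a, Ptchd4, Tenm3 and Atxn1, those below included Exoc4, an exocyst subunit, at 11.80, 11.86 and 11.79 in control siRNA and 11.23 and 11.12 in control ASO (-0.64 ± 0.05 SE, limma adjusted p = 0.000452). They also included Suclg1, a subunit of a citric acid cycle enzyme (-0.65 ± 0.07 SE, limma adjusted p = 0.00195), and Plcxd2, a phospholipase-domain gene (-0.66 ± 0.07 SE, limma adjusted p = 0.00163). Plcxd2 was high in Pint ASO, at 10.36 to 10.55, and low in control ASO, at 8.31 and 8.23. Suclg1 was low in Pint ASO too, at 9.59 to 9.72, below all siRNA arrays. Exoc4 read 11.28 to 11.38 in p53 siRNA and 11.46 to 11.47 in Pint ASO, so both lay below control siRNA. Exoc4, Suclg1 and Plcxd2 fell outside the rule for naming genes and were chosen after their values were seen.

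Genes called lower covered more of the genome than others. The median span of a protein-coding gene, introns included, was 21.8 kb over all 15020, 25.5 kb for the 360 called higher and 40.7 kb for the 339 called lower. For the 57 coding genes that were called lower and below all other arrays it was 116 kb. The share called lower was 1.31% of 4192 genes up to 10 kb, 1.89% of 4826 from 10 to 30 kb, 2.01% of 4035 from 30 to 100 kb and 3.96% of 1541 from 100 to 300 kb. Of 426 genes longer than 300 kb, 51 were called lower (12.0%) and 2 were called higher (0.469%).

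Span was examined after the values had been seen and carries no test. The median difference of the longest class was -0.067. The share of the longest class called lower was 5.4% without control ASO array 1, 6.34% without control ASO array 2, and 6.57%, 7.51% and 6.1% without control siRNA arrays 1, 2 and 3. The share of genes up to 10 kb called lower was 0.191%, 0.716%, 0.262%, 0.74% and 0.215% in the same fits, and 0.835% and 0.811% without p53 siRNA arrays 2 and 3. In Pint ASO against p53 siRNA, 30.5% of the longest class was lower and 17.1% higher, beside 22.5% lower and 18% higher among genes up to 10 kb.

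The 51 long genes included Tenm3 (1300 kb), Cdh13 (1180 kb), Cpq (511 kb), Atxn1 (415 kb), Pid1 (304 kb) and Exoc4 (725 kb). Slit3, a guidance ligand that spans 587 kb, read 12.10, 12.18 and 12.14 in control siRNA and 11.42 and 11.53 in control ASO (-0.66 ± 0.05 SE, limma adjusted p = 0.000293), with 11.41 to 11.43 in Pint ASO. The 2 long genes called higher were Mei4, a meiotic recombination gene, at 6.96, 6.91 and 7.03 against 8.10 and 7.96 (1.07 ± 0.07 SE, limma adjusted p = 0.000107), and Aff2 (0.34, limma adjusted p = 0.0128).

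**Figure D5:**
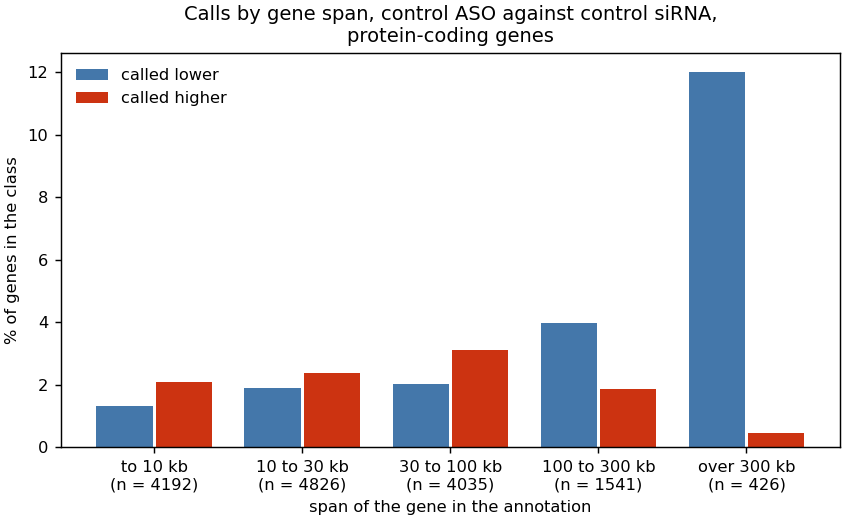
Share of protein-coding genes called lower (blue) or higher (red) in control ASO against control siRNA, in percent, by the span of the gene; n is the number of genes in each class. The blue bars go from 1.31% for genes up to 10 kb to 12.0% for genes over 300 kb, where the red bar is 0.469%.

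Lists of cell division and of secreted proteins had members that were lower. Of 29 G2/M genes 7 were lower (24.1%, beside 2.16% of all genes), none was higher, and all 29 differences were below 0, with a median of -0.28. Ccnb2, a mitotic cyclin, read 11.04, 10.94 and 10.92 in control siRNA and 10.65 and 10.55 in control ASO (-0.37 ± 0.06 SE, limma adjusted p = 0.0136). Cdc25c, the phosphatase that activates mitotic kinase, read 7.22, 7.09 and 7.25 against 6.65 and 6.78 (-0.48 ± 0.09 SE, limma adjusted p = 0.0226). None of the 7 passed in every fit that left out 1 array: none was called without control ASO array 2 or control siRNA array 1, 1 without control siRNA array 3, 2 without control ASO array 1, and 4 without p53 siRNA array 3 or Pint ASO array 1. With all arrays kept, 2 were called lower after median centring and 9 after a second quantile normalization.

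Of 29 replication genes 5 were lower (17.2%, beside 2.16% of all genes), with a median of -0.17. Uhrf1, which recruits the maintenance DNA methyltransferase, read 8.72, 8.57 and 8.72 against 8.18 and 8.20 (-0.48 ± 0.07 SE, limma adjusted p = 0.00607), a call lost without control ASO array 1 (-0.47, adjusted p = 0.0521). The replication count was 1 without either control ASO array or control siRNA array 1 or 3. It was 2 on leaving out array 2 or 3 of p53 siRNA or the first of Pint ASO, and 3 on leaving out the second of control siRNA. With all arrays kept, it was 1 after median centring and 6 after a second quantile normalization. The share of dividing cells and the level per cell cannot be told apart in these bulk samples.

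Complement and acute phase genes had 5 of 12 lower (41.7%, beside 2.16% of all genes), with all 12 differences below 0 and a median of -0.29. Hp, haptoglobin, read 9.83, 9.77 and 9.81 in control siRNA and 9.05 and 9.31 in control ASO (-0.62 ± 0.08 SE, limma adjusted p = 0.00474), and held in every fit that left out 1 array. Steap4, a metalloreductase induced by cytokines, read 9.95, 9.93 and 10.12 against 9.40 and 9.35 (-0.62 ± 0.12 SE, limma adjusted p = 0.0217). Steap4 missed the threshold in 4 fits, those leaving out a control ASO array or array 1 or 3 of control siRNA, with adjusted p-values from 0.0568 to 0.102. The list count was 1 without control ASO array 1 or control siRNA array 3, 2 without control siRNA array 1, and 3 on leaving out the second of control siRNA or the third of p53 siRNA. Of 34 cytokine and inflammation genes 3 were higher (8.82%, beside 2.71% of all genes) and 3 lower (8.82%, beside 2.16%). These counts became 0 and 1 without control ASO array 1, 2 and 5 without control ASO array 2, and 2 and 1 on leaving out any array of control siRNA. Cxcl15, a neutrophil chemokine, read 9.16, 9.09 and 9.28 against 8.49 and 8.53 (-0.67 ± 0.09 SE, limma adjusted p = 0.00429). In Hp, Steap4 and Cxcl15 the Pint ASO arrays were lower than control ASO, at 7.34 to 7.75 for Steap4 and 6.71 to 6.97 for Cxcl15.

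None of 18 collagens passed, with 17 of 18 differences below 0, and 5 of 26 proteoglycans and glycoproteins of the matrix were lower (19.2%, beside 2.16% of all genes), the largest Efemp1 (-0.54 ± 0.08 SE, limma adjusted p = 0.00977). None of these 5 was called without control ASO array 2, 1 without control ASO array 1 or control siRNA array 1 or 3, and 3 on leaving out the second of either siRNA group, the third of p53 siRNA or the first of Pint ASO. Matrix proteases and inhibitors had 3 of 18 lower (16.7%, beside 2.16% of all genes), namely Mmp3, Mmp19 and Plat. None of these was called when either control ASO array, or control siRNA array 1 or 3, was left out. Lysosomal genes had 4 of 38 lower (10.5%, beside 2.16%), with Ctsf, cathepsin F, at -0.43 ± 0.05 SE (limma adjusted p = 0.00349). The lysosomal count was 1 when any control array was left out and 2 without p53 siRNA array 2 or 3. With all arrays kept, median centring left 2 lysosomal and 3 extracellular matrix genes called lower, and a second quantile normalization gave 5 and 6. The TGF-beta pathway divided, with 3 of 30 higher (Inhba, Smad7 and Skil) and 3 lower (Tgfb3, Bmp4 and Inhbb), beside 2.71% and 2.16% of all genes, none of which was called without control ASO array 1 or any control siRNA array.

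Of 35 p53 target genes 3 were higher (8.57%, beside 2.71% of all genes), namely Plk3, Sesn2 and Trp53inp1, and 1, Fas, was lower (2.86%, beside 2.16%), with a median of 0.027. Only Plk3 was still called without control ASO array 1, and Fas (-0.31) was lost without that array (-0.25, adjusted p = 0.128) or any control siRNA array. Trp53inp1 was lost in 9 of the 11 fits that left out 1 array. Mdm2, the ubiquitin ligase that limits p53, read 12.98, 12.99 and 12.93 in control siRNA and 13.23 and 13.06 in control ASO (0.18 ± 0.07 SE, limma adjusted p = 0.23). Sesn2 is also an ATF4 target. Of 11 subunits of Polycomb repressive complex 2 none passed, and Ezh2, its methyltransferase, differed by -0.01 ± 0.07 SE (limma adjusted p = 0.958). None of 19 sterol synthesis genes and none of 12 fatty acid synthesis genes passed.

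Of 21 hypoxia and glycolysis genes 2 were higher (9.52%, beside 2.71% of all genes) and 3 lower (14.3%, beside 2.16%). Of 22 respiratory chain genes 2 were lower (9.09%), and of 61 ribosomal protein genes 3 were lower (4.92%) with a median of -0.10. Of 13 histone genes 1 was higher (7.69%) and 2 were lower (15.4%). None of these calls was made without control ASO array 1, and between 0 and 2 genes per list and direction were called without control ASO array 2 or a control siRNA array. After median centring no respiratory chain gene and no histone gene was called lower, and a second quantile normalization gave 4 and 2. Of 18 contractile genes 1, Actg2, was lower (5.56%, beside 2.16% of all genes). Its call was lost without control ASO array 1 (adjusted p = 0.102) or control siRNA arrays 1 (adjusted p = 0.0555) and 3 (adjusted p = 0.0551).

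Markers of the labelled cell type had the highest summed level of the marker lists in both groups. All 17 fibroblast markers were measured, and their summed level, the log2 of the sum of linear values, was 16.47 to 16.51 in control siRNA and 16.40 in both control ASO arrays, with 1 of them, P4hb, called lower. Of the 17 differences 14 were below 0, with a median of -0.10, and the most abundant markers weigh most in the sum. The summed level of 7 measured epithelial markers was 10.70 to 10.72 against 10.47 to 10.64, with Cdh1 (-0.40) and Krt18 (-0.28) called lower, and that of 8 smooth muscle markers was 13.39 to 13.47 against 13.18 to 13.28, with Actg2 called lower. Of 12 macrophage and blood markers 7 were measured, with summed levels of 10.86 to 10.93 against 10.83 to 10.88, and of 9 endothelial markers 8, with 9.95 to 9.96 against 9.95 to 10.06. These lists and those of skeletal muscle and neurons had no call, and of 6 adipocyte markers Lpl was lower (-0.37). No marker call held throughout: leaving out 1 array, Cdh1 was lost in 2 fits (control siRNA array 3 and control ASO array 2, adjusted p = 0.0537 and 0.0626) and P4hb in 3 (control siRNA array 3 and either control ASO array, adjusted p from 0.0582 to 0.0792). Krt18 was lost in 6 (adjusted p from 0.0528 to 0.181) and Lpl in 7 (adjusted p from 0.061 to 0.153), in both cases with any control siRNA array or control ASO array 1 among them. Whether a change in cell composition took part in any result was not tested.

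The same classes of reagent were present in the other arms of the study, where Pint ASO can be set against p53 siRNA without using any of the control arrays. That comparison also holds the effects of removing 2 different targets, and 23.7% of the genes were higher in Pint ASO and 23.5% lower. Of the 430 genes called higher in control ASO, 390 were also higher in Pint ASO than in p53 siRNA and 10 were lower. Of the 344 that were lower, 276 were lower there too and 31 were higher. All 11 arrays shared 1 estimate of the spread in the fit.

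The ATF4 list had 49 of 58 genes higher and 2 lower in Pint ASO against p53 siRNA, with a median of 0.48, and the immediate-early list 44 of 53 higher and 2 lower. Snord118 differed there by 3.08 (limma adjusted p = 2.19e-07), Rnu3a by 1.85 (limma adjusted p = 5.04e-06) and Rnu12 by 1.77 (limma adjusted p = 4.79e-08), each in the direction seen between the controls. Of the 39 interferon-stimulated genes none was higher there and 28 were lower. Sirt6 (0.16, limma adjusted p = 0.0295) and Tada2a (0.00, limma adjusted p = 0.993) were not lower there. Exoc4 was not lower there either (0.11, limma adjusted p = 0.0904), but both of its knockdown groups lay below control siRNA. Its p53 siRNA arrays read 11.28 to 11.38 and its Pint ASO arrays 11.46 to 11.47, against 11.79 to 11.86 in control siRNA.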

How the data were processed

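RNA was extracted with TRIzol and a purification column, and 300 ng per sample was used for Affymetrix mouse arrays. The main and the supplementary methods name 2 different arrays, and the probe sets match the whole-transcript array of the supplement. The deposited values are log2 intensities after RMA background correction, normalization and summarization by the authors; the version is not given in the sources used here. Groups came from the sample labels. Title and description number the control ASO arrays differently, and which control ASO of the study was used is not stated.

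Probe sets over log2 6 in at least 2 arrays of any group (26038) were fitted with limma 3.58.1 (R 4.3.3), group means, moderated variances and Benjamini-Hochberg adjustment over all of them; members are the 25536 of these that passed in a control group. The fit was tested on simulated data. Of the 34760 probe sets, 21640 had 1 symbol in the platform annotation; gene types, spans and sequences came from RefSeq (GRCm38.p6), whereas the arrays carry no coordinates here. Span and the order of the control ASO arrays against the 9 others were examined after the values had been seen. The precision rests on 2 and 3 arrays. The 12 highest and 12 lowest called genes with 1 symbol and non-overlapping control arrays were named, together with up to 6 called genes per list, the defining members of lists, Lncpint, Copg2 and single members of small counts. The members and lists were chosen with earlier results of these data known. Replicate numbers did not establish pairing. The alternatives changed the filter, scaling, variance model, arrays fitted, block and probe-set summary.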

Additional observations from a re-analysis of the deposited data

Results flagged for a closer look

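The difference between control ASO and control siRNA was tested against that between Pint ASO and p53 siRNA (the second minus the first, in the same limma fit). Of the 24 highest and lowest genes 13 differed, as did 4794 of the 25536 member probe sets. The 24 were picked by the size of the first difference, so the choice itself favours a smaller second difference. Among the higher genes the second difference was smaller for Snord118 (by -1.11, adjusted p = 0.00431) and Snora21 (-1.0, adjusted p = 0.00283), and larger for Rny1 (0.90, adjusted p = 0.046) and Vaultrc5 (0.73, adjusted p = 0.00617). Among the lower genes, Sirt6 (1.23, adjusted p = 1.36e-05), Tada2a (1.02, adjusted p = 0.000634), Pltp (0.84, adjusted p = 0.000105), Atxn1 (0.65, adjusted p = 0.000183) and Ptchd4 (0.57, adjusted p = 0.000995) were less low or not low in the second comparison. Pid1 (1.19, adjusted p = 1.36e-05) was lower in the first and higher in the second, at -0.67 and 0.52. Dpt (-1.05, adjusted p = 0.000688), Trf (-0.83, adjusted p = 0.0011) and Adgrg2 (-0.41, adjusted p = 0.00341) were lower still. By arithmetic, the second minus the first equals Pint ASO minus control ASO, less p53 siRNA minus control siRNA. It therefore compares the 2 knockdown arms, each with its own control. These 2 differences were 1.20 and -0.04 for Sirt6, -0.37 and -1.21 for Pltp, and 0.17 and -1.02 for Pid1. Whether loss of the targets or another property of the oligonucleotides gave them was not tested.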

How the results depend on the processing

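The 1043 calls between the controls became 61 when only these 5 arrays were fitted, 370 with a replicate block by title number and 464 by description number, and 155 at a log odds (B) over 3. They ranged from 301 to 980 when 1 array was left out. With the block, 360 and 443 of the calls were among the 1043. The other alternatives (2 filters, 2 scalings, a variance trend and leaving out low-numbered probe sets) gave 707 to 1534. Pairing was not established: deviations of same-numbered control arrays correlated at 0.114 and 0.144 by title and at -0.144 and -0.0451 by description, with only 2 pairs, while control ASO and Pint ASO arrays correlated at -0.0463 and -0.42 by title and at 0.42 and 0.375 by description. Pint ASO against p53 siRNA gave 3025 calls at B over 3 in place of 10047. Of 116 called genes that the naming rule gave, none was reversed under any alternative, 93 lost the call with 5 arrays alone, and 65 and 52 with the block by title and by description. With 2 control ASO arrays, small differences are the least certain.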
